A study of Mus musculus with 96 samples.

Results

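The mir-130 and mir-301 family was followed across Htt genotypes and ages in mouse cerebellum through 3 microRNA stem-loops, mir-130a (MI0000156), mir-130b (MI0000408) and mir-301a (MI0000401), of 1187 stem-loops in the deposited tables. The members were chosen by miRBase identifier, with the Q140 and CAG length results of these data already known. For those 2 contrasts the values below are therefore a description without a test. The deposited tables list identifiers only, and the names of the members come with the selection. The stem-loop length that the FPKM values imply was 64 bases for MI0000156, 82 for MI0000408 and 86 for MI0000401 in every library, which are the lengths of Mir130a, Mir130b and Mir301 in RefSeq. All 3 members passed the filter on low counts, which 434 of the 1187 identifiers passed.

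A microRNA is a short RNA cut from the arms of a stem-loop precursor and held by an Argonaute protein, which it guides to messenger RNAs. Pairing runs mainly through the seed, a stretch near the 5′ end of the microRNA, and usually lowers the translation or the stability of the target. MicroRNAs with a common seed form a family because they can bind the same sites. Members of this family are known to repress PPARG, a nuclear receptor of fat cell differentiation, in human cells.

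The 3p arms of the members are shown because they carry the seed that defines the family. Bases 2 to 8 are in capitals, and the sequences are those of RefSeq on GRCm38.p6, matched by symbol for all 3 members.
miR-130a-3p: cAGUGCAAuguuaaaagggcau
miR-130b-3p: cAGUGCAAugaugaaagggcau
miR-301a-3p: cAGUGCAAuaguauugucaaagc

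All 3 members had 1 seed, AGUGCAA. Counted from 1 at the 5′ end, miR-130a-3p and miR-130b-3p differed at 2 of 22 bases, U11A and A13G. The miR-301a-3p sequence had the first 9 bases in common with both and differed from miR-130a-3p at 10 of 22 bases and from miR-130b-3p at 11. The 5p arms, with the same bases in capitals, start with different seeds and are shown for contrast.
miR-130a-5p: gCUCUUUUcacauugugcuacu
miR-130b-5p: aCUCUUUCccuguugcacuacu
miR-301a-5p: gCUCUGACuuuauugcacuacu

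The counts were given per stem-loop, so reads of the 2 arms were not told apart. The stem-loops are printed with both mature arms in capitals, to show where reads can fall.
Mir130a stem-loop: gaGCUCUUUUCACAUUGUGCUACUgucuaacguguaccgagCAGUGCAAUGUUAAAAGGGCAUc
Mir130b stem-loop: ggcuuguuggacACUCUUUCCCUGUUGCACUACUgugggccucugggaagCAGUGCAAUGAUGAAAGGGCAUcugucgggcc
Mir301 stem-loop: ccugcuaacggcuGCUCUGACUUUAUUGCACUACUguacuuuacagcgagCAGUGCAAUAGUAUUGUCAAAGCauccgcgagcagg

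None of the 6 mature sequences occurred in the stem-loop of another gene among the 1005 stem-loops of the RefSeq table. The estimated counts were whole numbers (within 0.001) in all 96 libraries for mir-130a and mir-130b and in all but 1 for mir-301a, so reads were hardly divided between the members and other stem-loops. Among 1738 mature sequences of that table, 7 had the seed AGUGCAA, the 3 members and 4 others, which show how far the sequences of the family differ outside the seed.
miR-130c: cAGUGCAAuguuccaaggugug
miR-721: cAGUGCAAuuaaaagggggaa
miR-6341: cAGUGCAAugauauugucacuau
miR-6389: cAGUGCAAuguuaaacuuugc

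The identifiers of these relatives were not paired with names, and they were not analysed here. The list may be incomplete, since Mir301b, which was listed by name as a relative, was not among the sequences found with the seed.

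The members lie on 3 chromosomes of GRCm38, the assembly also called mm10, to which the reads were aligned. The stem-loop of mir-130a is at chr2:84741115-84741178 on the minus strand and overlapped no other annotated gene in GENCODE vM21. The stem-loop of mir-130b is at chr16:17124061-17124142 on the minus strand, in an intron of 2610318N02Rik, a protein-coding gene of the same strand. Mir301b, the listed relative that the seed search did not return, begins 257 bases away on that strand and was not analysed here. The stem-loop of mir-301a is at chr11:87113004-87113089 on the plus strand, in an intron of Ska2, which encodes a protein of the spindle and kinetochore complex, on the same strand.

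Cerebellar small RNA was read in C57BL/6 mice with 1 knock-in allele of Htt, in which human HTT exon 1 with 140, 92, 50 or 20 CAG repeats (Q140, Q92, Q50 and Q20) stands beside a wild type mouse allele, and of wild type (WT) littermates of the Q50 and the Q20 line. Each of the 6 genotype groups had 8 libraries, 4 male and 4 female, at 10 months and at 6 months, which makes 96 libraries in 24 groups. Each library is described as a separate animal. The Q140 and Q92 lines have no WT littermates here, so line and allele cannot be told apart for them. Controls are Q20 and WT together, as in the study.

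Library totals ran from 5435778 to 7934044 estimated counts. At 6 months 2 libraries, Q92 male replicate 4 and Q20 female replicate 2, stood apart from the others of their age (standardized connectivity, Z.k, of -6.1 and -6.68) and were left out, which leaves 94. Cell type markers are known by microRNA name and were not analysed here, so the tissue label was not checked. In a piece of tissue, fewer cells of a type and less RNA per cell cannot be told apart.

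The 3 members differed widely in level. On the FPKM scale (counts per stem-loop length and library total) mir-130a averaged 10079 over the 94 libraries, with a range of 7681 to 12522. The mean of mir-301a was 6817 FPKM, with a range of 5063 to 9628. The mean of mir-130b was 139 FPKM, with a range of 82.8 to 233. By mean FPKM mir-130a ranked 84, mir-301a 97 and mir-130b 273 of the 434 stem-loops tested. In FPKM mir-130a exceeded mir-130b 73.2 ± 14.7 times at 10 months (SD, n = 48) and 78.2 ± 18.2 times at 6 months (SD, n = 46). It exceeded mir-301a 1.50 ± 0.200 times at 10 months and 1.49 ± 0.214 times at 6 months, and it was the higher of the pair in 47 of 48 and 46 of 46 libraries. The exception was a Q20 line WT library. FPKM divides by stem-loop length, 64 bases for mir-130a, 82 for mir-130b and 86 for mir-301a, which raises mir-130a against both. In CPM (counts scaled to library size, without length) mir-130a averaged 639 and mir-301a 579 at 10 months, and 651 and 594 at 6 months. On that scale mir-301a was the higher in some libraries, as in Q50 female replicate 2 at 10 months (647 against 519 CPM).

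Depth set a different precision for each member. The estimated counts per library ran from 2966 to 5636 for mir-130a and from 2932 to 5402 for mir-301a, but only from 43 to 130 for mir-130b. A count of 43 has an exact 95% Poisson interval of 31.1 to 57.9 counts, and a count of 130 one of 109 to 154. These intervals cover counting error only, since the reads had no molecular identifiers. Within a member, levels are given below in CPM, counts scaled to a common library size with the trimmed-mean (TMM) factors of edgeR. The CPM of mir-130b varied by 19.8% (coefficient of variation) over all libraries of 10 months, where counting alone gives 11.4%. For mir-130a the same figures were 7.45% and 1.54%, and for mir-301a 11.8% and 1.62%. Spread between libraries, which also holds genotype, sex and batch, therefore exceeded counting error by far for the 2 abundant members and by less for mir-130b.

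The comparison of Q140 with controls asks what differs in mice with the longest repeat of the series. The least abundant member, mir-130b, was lower in Q140, while mir-130a (0.936 of the control level at 6 months) and mir-301a (1.03 at both ages) were closer to controls. At 10 months mir-130b had a lowest level of 8.17, a median of 9.31 and a highest level of 12 CPM in Q140, against 8.23, 11.6 and 16.9 CPM in controls. At 6 months the lowest, median and highest levels were 7.67, 9.29 and 10.7 CPM in Q140, against 7.64, 11.9 and 15.8 CPM in controls. The groups overlapped at both ages, although 1 Q140 library lay just under all controls at 10 months. Of the 8 Q140 libraries 6 lay under the control mean at 10 months and 8 at 6 months, and at 6 months 18 of 23 control libraries lay above the highest Q140 library.

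The fitted log2 fold change of mir-130b in Q140 was -0.24 (SE 0.12) at 10 months, -0.37 (SE 0.11) at 6 months and -0.30 (SE 0.08) over both ages, or 0.81 of the control level. At 6 months the Q140 libraries varied by 9.88% around their mean, less than the 12.9% that counting alone gives, and the controls by 14.5%. On the FPKM scale mir-130b took 0.714% ± 0.119 of the summed FPKM of the 3 members in the 8 Q140 libraries and 0.848% ± 0.150 in the 24 controls at 10 months (mean ± SD). At 6 months it took 0.659% ± 0.0612 in Q140 and 0.828% ± 0.159 in the 23 controls.

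For mir-130a the lowest, median and highest levels at 10 months were 603, 642 and 685 CPM in Q140, against 579, 636 and 724 CPM in controls. At 6 months they were 608, 617 and 706 CPM in Q140, against 530, 678 and 757 CPM in controls. All Q140 libraries lay within the range of the controls at both ages, and 7 of 8 lay under the control mean at 6 months but 5 of 8 at 10 months. The fitted log2 fold change was 0.00 (SE 0.04) at 10 months, -0.10 (SE 0.05) at 6 months and -0.05 (SE 0.03) over both ages. The Q140 libraries were close together, with an SD of 24.2 CPM at 10 months and 32.7 CPM at 6 months, against 46.7 and 65.3 CPM in controls.

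For mir-301a the median level was 580 CPM in Q140 and 576 CPM in controls at 10 months, within ranges of 542 to 678 and 447 to 873 CPM. At 6 months the median was 592 CPM in Q140 and 566 CPM in controls, within ranges of 561 to 711 and 499 to 825 CPM. The groups overlapped throughout, and the fitted log2 fold change was 0.04 at both ages (SE 0.06 at 10 months and 0.07 at 6 months). The summed CPM of the family was 1240 ± 38.7 for the 8 Q140 libraries and 1234 ± 82.7 for the 24 controls at 10 months (mean ± SD), and 1246 ± 52.7 for Q140 and 1281 ± 107 for the 23 controls at 6 months.

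**Figure D1:**
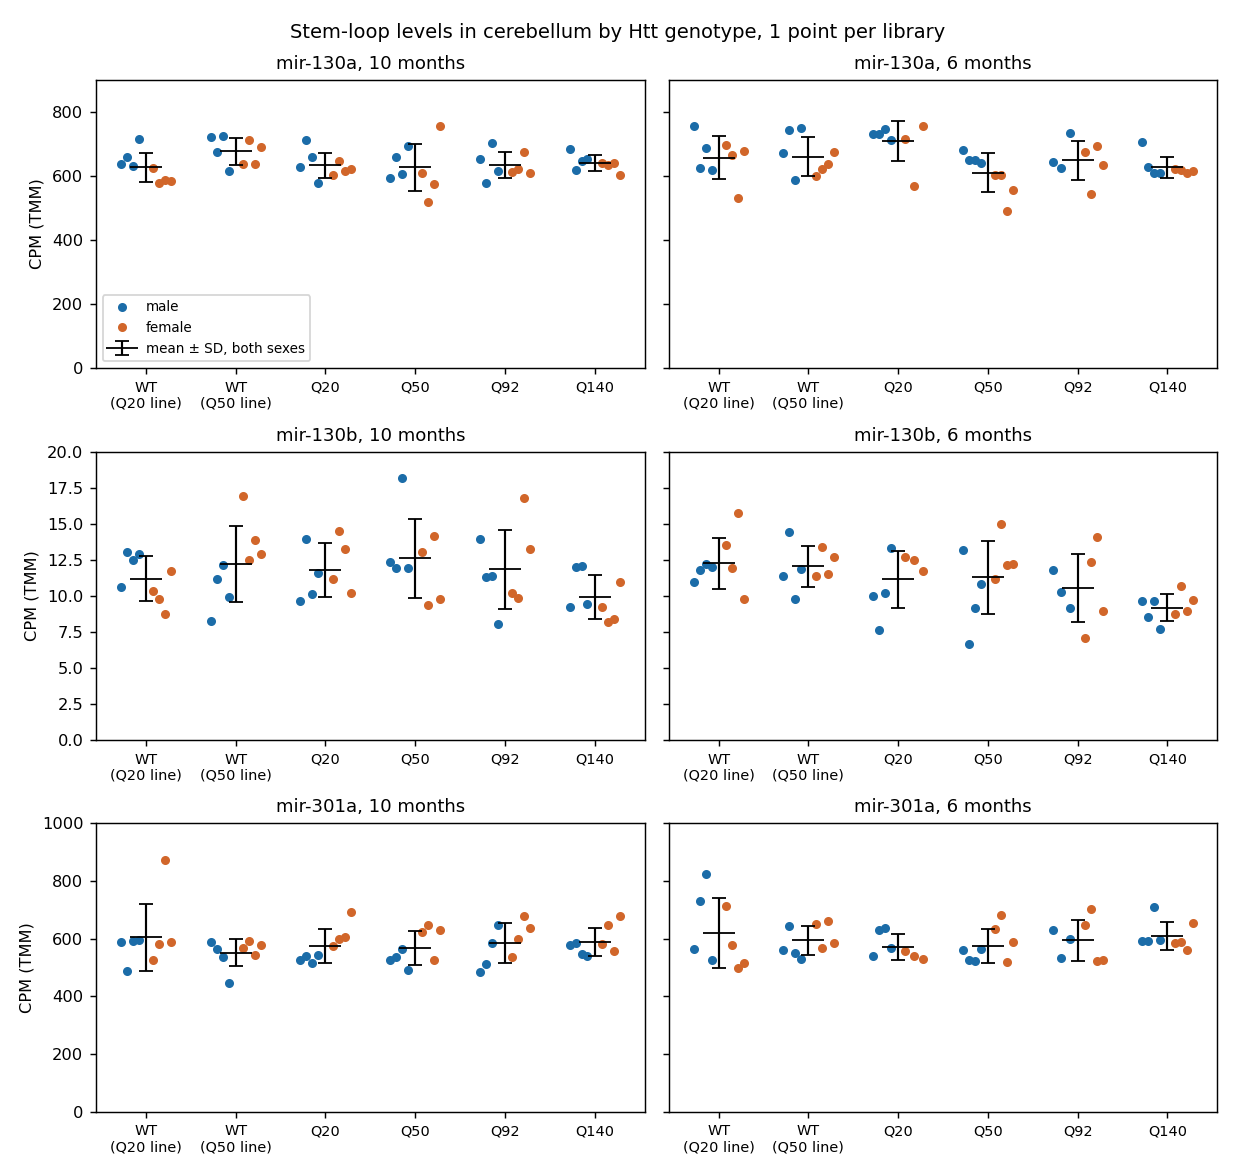
Level of each member in CPM (vertical axis, from 0) by Htt genotype (horizontal axis, by CAG length), with 10 months on the left and 6 months on the right; each point is 1 library, blue for males and orange for females, and bars are the mean ± SD of a genotype. The Q140 libraries of mir-130b run from 8.17 to 12 CPM at 10 months and from 7.67 to 10.7 CPM at 6 months and overlap the controls, with 1 library under the lowest control at 10 months, while the Q140 means of mir-130a and mir-301a lie near those of the other genotypes.

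Of all 434 stem-loops tested, 5.07% passed the threshold (edgeR adjusted p under 0.05) for Q140 over both ages and 3.0% for CAG length. Of the 3 members mir-130b was among them in both contrasts, from which the family was selected, and nothing is read from that count. The L tag, a part of the library name that the labels do not define and that was used as a batch term, gives the values within batches. These values are not adjusted for sex. All Q140 libraries of tag 1 were female, and those of tag 8 were male apart from female replicate 3. The males of tag 8 are compared further below. Within tags 1 and 8 at 10 months the mean log2 CPM of mir-130b in Q140 less that in controls was -0.30 (3 Q140 and 14 control libraries) and -0.19 (5 and 10). Within tags 2 and 3 at 6 months it was -0.35 (3 and 3) and -0.47 (4 and 12), and the single Q140 library of tag 4 was at -0.04 against 8 controls. For mir-130a the differences were -0.07 and 0.05 within tags 1 and 8, and -0.13, -0.07 and -0.12 within tags 2, 3 and 4. For mir-301a they were 0.13 and 0.00 within tags 1 and 8, and 0.17, -0.02 and 0.04 within tags 2, 3 and 4, so neither abundant member had 1 sign in every tag. No tag was used at both ages.

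A further fit took the repeat as a continuous variable, with WT entered at 7 repeats, to see if levels change with it. The slope of mir-130b was -0.15 (SE 0.09) at 10 months, -0.27 (SE 0.08) at 6 months and -0.21 (SE 0.06) over both ages, in log2 units per 100 CAG. The slope over both ages was -0.04 (SE 0.02) for mir-130a and 0.02 (SE 0.03) for mir-301a. These fits include the libraries of every genotype, those of Q140 among them. The mean level of mir-130b did not step down evenly with the repeat. At 10 months the means were 11.2 ± 1.58 in WT of the Q20 line, 12.2 ± 2.61 in WT of the Q50 line, 11.8 ± 1.87 in Q20, 12.6 ± 2.76 in Q50, 11.8 ± 2.75 in Q92 and 9.92 ± 1.54 CPM in Q140 (SD, n = 8 each). At 6 months they were 12.2 ± 1.77, 12 ± 1.43, 11.1 ± 1.98, 11.3 ± 2.52, 10.5 ± 2.38 and 9.18 ± 0.907 CPM in the same order (SD, n = 8 each, but 7 in Q20 and Q92). Neighbours in this order differed by less than the larger of their 2 SDs at both ages. At 6 months the 6 means fell with each step apart from Q50, and at 10 months Q50 had the highest.

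The 2 other expanded alleles were tested against the same controls. Libraries of Q92, Q50, Q20 and WT also entered the CAG length fit that was known at selection. The tests of these groups, here and below, are therefore not independent of the choice of members. None of the 3 members differed in Q92 or in Q50 past the threshold. In Q92, mir-130b was at a log2 fold change of -0.09 over both ages (SE 0.08, 95% interval -0.24 to 0.07, edgeR adjusted p = 0.854), mir-130a at -0.03 (SE 0.03, adjusted p = 0.854) and mir-301a at 0.00 (SE 0.05, adjusted p = 0.998). Without single libraries the value of mir-130b ran from -0.13 to -0.04, the last without Q92 female replicate 1 of 6 months, and it was -0.06 without Q92 male replicate 4 of 10 months, with no call in any of the 94 fits. Levels of mir-130b in Q92 spread widely, with a lowest, median and highest level of 8.03, 11.3 and 16.8 CPM at 10 months and 7.09, 10.2 and 14.1 CPM at 6 months. The controls ran from 8.23 to 16.9 and from 7.64 to 15.8 CPM, so that Q92 spanned nearly the whole range of the controls. Its change was -0.18 (SE 0.11) at 6 months, the age at which 5 of 7 Q92 libraries lay under the control mean, and 0.00 (SE 0.11) at 10 months, with 5 of 8. The interval over both ages includes no change but also most of the size seen in Q140, and Q92 and Q140 were not tested against each other. For Q92 edgeR called 0% of the 434 stem-loops (25 at an unadjusted p under 0.05), and DESeq2 and limma called 0 as well.

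In Q50, mir-130a was at -0.08 over both ages (SE 0.03, edgeR adjusted p = 0.550), mir-130b at 0.02 (SE 0.08, adjusted p = 0.981) and mir-301a at -0.01 (SE 0.05, adjusted p = 0.981). Over both ages 0% of the 434 stem-loops passed in Q50 (29 at an unadjusted p under 0.05, and 0 with DESeq2 or limma). At 10 months alone 16 stem-loops passed with edgeR, or 3.69%, and none of the members was among them, with adjusted p of 0.654 for mir-130a, 0.701 for mir-130b and 0.900 for mir-301a. That count was 21 with DESeq2 but 0 with limma or with the replicate block. At 6 months alone edgeR called 0 (13 at an unadjusted p under 0.05), as did DESeq2 and limma. Q50 is the one expanded allele with WT littermates. Against them mir-130a averaged 626 ± 74.3 CPM in Q50 and 676 ± 42.9 CPM in WT at 10 months, and 609 ± 61.0 CPM in Q50 and 660 ± 61.2 CPM in WT at 6 months (SD, n = 8 each). The difference was -0.11 (SE 0.04), with the third lowest p of all stem-loops (0.00449 unadjusted), but the edgeR adjusted p was 0.476 and it did not hold up against the number of tests. It was -0.07 when only the groups compared were fitted, with an adjusted p over 10 settings between 0.407 and 0.996. Its size was similar at both ages, -0.11 at 10 months (SE 0.05) and -0.12 at 6 months (SE 0.06). Within tags, against all controls, the Q50 value of mir-130a was 0.045 in tag 1 (4 Q50 and 14 control libraries) and -0.129 in tag 8 (4 and 10) at 10 months. At 6 months it was -0.213 in tag 3 (2 and 12) and -0.12 in tag 4 (6 and 8). These values are not adjusted for sex. The Q50 libraries were male in tag 1 apart from female replicate 4, and female in tag 8 apart from male replicate 1. In tag 3 they were female only. The Q50 libraries covered 519 to 757 CPM at 10 months, a range that includes all 24 controls. Against WT littermates mir-130b was at -0.03 (SE 0.10, edgeR adjusted p = 0.994) and mir-301a at 0.01 (SE 0.06, adjusted p = 0.994). In that contrast 0% of the stem-loops passed (25 at an unadjusted p under 0.05, and 0 with DESeq2 or limma).

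The contrast of Q20 with its WT littermates compares mice that were pooled as controls. None of the members passed. The change over both ages was -0.10 for mir-301a (SE 0.06, edgeR adjusted p = 0.590), -0.04 for mir-130b (SE 0.10, adjusted p = 0.951) and 0.05 for mir-130a (SE 0.04, adjusted p = 0.821), where 1.15% of all stem-loops passed. The mean of mir-301a was 575 ± 57.8 CPM in Q20 and 604 ± 116 CPM in WT littermates at 10 months (SD, n = 8 each), and 571 ± 44.7 CPM (SD, n = 7) and 619 ± 121 CPM (SD, n = 8) at 6 months. The highest WT libraries were at 873 CPM at 10 months and 825 CPM at 6 months, and the medians were 559 CPM in Q20 and 589 CPM in WT at 10 months and 557 CPM in Q20 and 571 CPM in WT at 6 months.

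**Figure D2:**
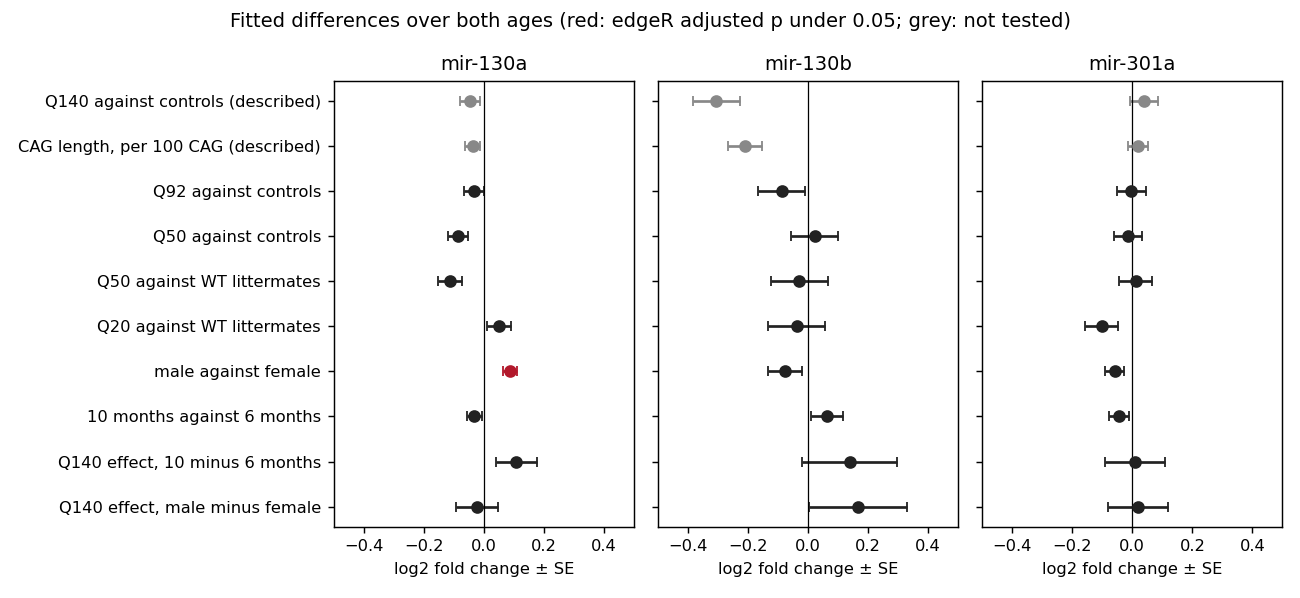
Fitted log2 fold change over both ages (horizontal axis, bars are ± 1 SE) of each member in 10 comparisons (vertical axis); grey points were not tested because the family was selected on them, and the 1 red point passed an edgeR adjusted p of 0.05. mir-130b lies at -0.30 in Q140 and near 0 in Q50, and the difference between males and females of mir-130a, at 0.09, is the red point.

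Sex was balanced by design and was not used to choose the members. Over all genotypes mir-130a was higher in males. At 10 months its lowest, median and highest levels were 579, 653 and 724 CPM in the 24 males, against 519, 622 and 757 CPM in the 24 females. At 6 months they were 586, 673 and 755 CPM in the 23 males, against 492, 621 and 757 CPM in the 23 females. The sexes overlapped, but 17 males lay above the female mean at each age, and the male mean was the higher in all 6 genotype groups at both ages. The log2 difference over both ages, male against female, was 0.09 (SE 0.02, edgeR adjusted p = 0.0202), or 1.06 times the female level, and 9.91% of all stem-loops passed in this contrast. It was 0.05 at 10 months (SE 0.03, adjusted p = 0.337) and 0.13 at 6 months (SE 0.04, adjusted p = 0.0866). Without the filter on low counts, where more stem-loops are tested, the adjusted p over both ages was 0.0573, outside the threshold, in a range over 9 settings from 0.00911. Within L tags the difference, not adjusted for genotype, was 0.08 and 0.04 in tags 1 and 8, and 0.01, 0.14 and 0.19 in tags 2, 3 and 4.

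The other abundant member, mir-301a, was lower in males at 10 months. There its lowest, median and highest levels were 447, 542 and 648 CPM in males, against 525, 596 and 873 CPM in females. Of 24 males 23 lay under the female mean and 6 under the lowest female, and the male mean was the lower in all 6 genotype groups. The log2 difference was -0.17 (SE 0.04, edgeR adjusted p = 0.0113), where 6.91% of stem-loops passed at that age. At 6 months the medians were 566 CPM in males and 584 CPM in females, the difference was 0.05 (SE 0.05, adjusted p = 0.700), the male mean was lower in 3 of 6 genotype groups, and 1.15% of stem-loops passed. Within tags 1 and 8 the difference, not adjusted for genotype, was -0.21 and -0.10 at 10 months. The call at 10 months was kept without any 1 of the 48 libraries of that age, with an edgeR adjusted p between 0.00668 and 0.0258. Among these was the fit without the female of 873 CPM. Leaving out a library of 6 months does not change the fit of 10 months. Over both ages the difference was -0.06 (SE 0.03, adjusted p = 0.213).

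A test of whether the sex difference itself changed with age was added after these values were seen. For mir-301a the difference, 10 months less 6 months, was -0.23 (SE 0.07, edgeR adjusted p = 0.0467), where 1.84% of stem-loops passed. This call was lost in 8 of 9 other settings (adjusted p from 0.0479 to 0.178) and in 68 of 94 fits without 1 library, with the estimate between -0.26 and -0.17 in those fits. For mir-130a the difference was -0.09 (SE 0.05, adjusted p = 0.574) and for mir-130b 0.11 (SE 0.11, adjusted p = 0.839).

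Males and females did not differ past the threshold in mir-130b, with a log2 difference over both ages of -0.08 (SE 0.06, edgeR adjusted p = 0.395). At 10 months its median was 11.7 CPM in males and 11.1 CPM in females, and at 6 months 10.2 CPM in males and 11.9 CPM in females. The difference had opposite signs in the 2 tags of 10 months, 0.20 in tag 1 and -0.20 in tag 8, and was -0.10, -0.13 and -0.19 in tags 2, 3 and 4. These values are not adjusted for genotype. The Q140 libraries, where mir-130b was lower, were all female in tag 1 and male in tag 8 apart from female replicate 3. In the WT mice of the Q50 line at 10 months every male, of 8.23 to 12.2 CPM, lay under every female, of 12.4 to 16.9 CPM. In the WT mice of the Q20 line at that age the male mean was 12.3 ± 1.13 CPM and the female mean 10.1 ± 1.23 CPM (SD, n = 4 each), the other way.

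**Figure D3:**
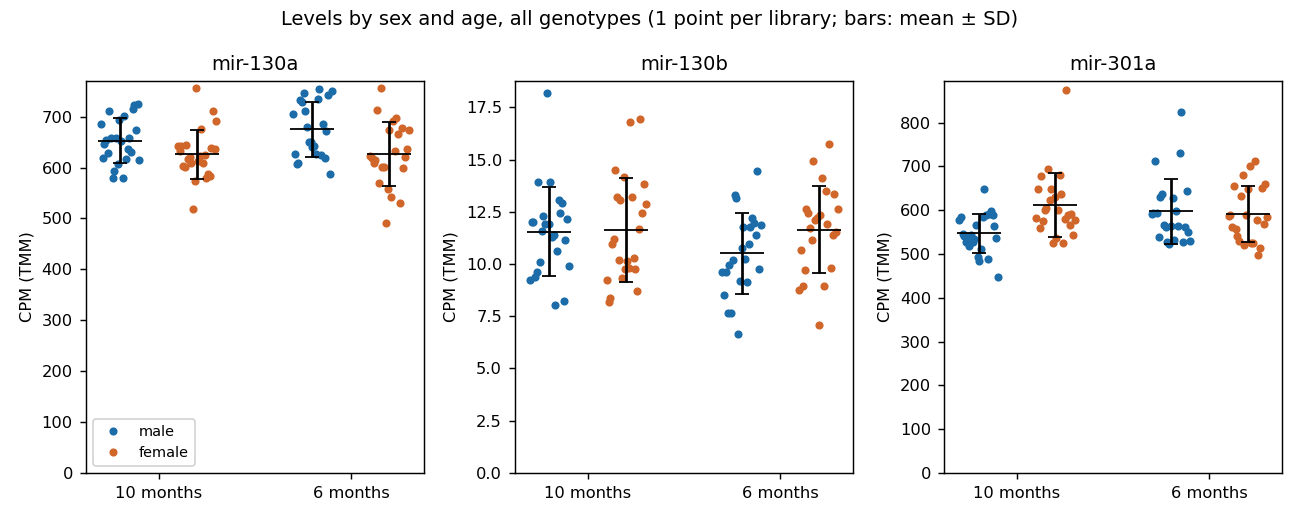
Level of each member in CPM (vertical axis, from 0) in males (blue, left) and females (orange, right) at 10 and at 6 months over all genotypes; each point is 1 library and bars are the mean ± SD. For mir-301a at 10 months 23 of 24 males lie under the female mean, and for mir-130a 17 males lie above the female mean at each age.

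The lower level of mir-130b in Q140 was seen in the means of both sexes, which are not adjusted for L tag. At 10 months the mean was 10.7 ± 1.57 CPM in Q140 and 11.3 ± 1.67 CPM in control males (SD, n = 4 and 12), and 9.18 ± 1.27 CPM in Q140 and 12.1 ± 2.31 CPM in control females (SD, n = 4 and 12). At 6 months it was 8.85 ± 0.943 CPM in Q140 and 11.3 ± 1.77 CPM in control males (SD, n = 4 and 12), and 9.51 ± 0.861 CPM in Q140 and 12.4 ± 1.51 CPM in control females (SD, n = 4 and 11). The Q140 males of 10 months were thus the group closest to their controls. These males were all in tag 8, at 9.22, 9.40, 12 and 12 CPM. The control males of tag 8 at that age were at 9.63, 9.91, 10.6 and 12.5 CPM, with no clear difference. The difference of the Q140 effect between males and females was 0.17 (SE 0.16, 95% interval -0.15 to 0.48, edgeR adjusted p = 0.993). It was -0.02 for mir-130a (SE 0.07, adjusted p = 0.993) and 0.02 for mir-301a (SE 0.10, adjusted p = 0.993), and 0% of stem-loops passed (21 at an unadjusted p under 0.05, and 0 with DESeq2 or limma). The difference of the Q140 effect between 10 and 6 months was 0.14 for mir-130b (SE 0.16, 95% interval -0.17 to 0.45, adjusted p = 0.874), 0.11 for mir-130a (SE 0.07, adjusted p = 0.829) and 0.01 for mir-301a (SE 0.10, adjusted p = 0.968). Of all stem-loops 0% passed here with edgeR (28 at an unadjusted p under 0.05), 0 with limma and 1 with DESeq2 or without the L tag. Both intervals of mir-130b include differences of the size of its change in Q140.

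Between ages none of the members passed the threshold. The log2 difference of 10 months against 6 months was -0.03 for mir-130a (SE 0.02, edgeR adjusted p = 0.314), 0.06 for mir-130b (SE 0.05, adjusted p = 0.369) and -0.04 for mir-301a (SE 0.03, adjusted p = 0.300). In this contrast 34.6% of all stem-loops passed, and age cannot be told apart from the L tag. Mean levels over all libraries were 639 ± 47.6 CPM at 10 months and 651 ± 63.3 CPM at 6 months for mir-130a, 11.6 ± 2.30 and 11.1 ± 2.07 CPM for mir-130b, and 579 ± 68.4 and 594 ± 69.1 CPM for mir-301a (SD, n = 48 at 10 months and 46 at 6 months).

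Whether members with 1 seed varied together from animal to animal was asked across libraries, after the effects of genotype, sex and L tag were removed from log2 CPM. No relation passed the threshold. The 6 relations (3 pairs, 2 ages) had a Pearson r between -0.17 and 0.10 and a Spearman rho between -0.12 and 0.13. For mir-130a and mir-130b, the closest in sequence, r was 0.10 at 10 months (n = 48, two-sided permutation p = 0.504, adjusted p = 0.815 over the 6 relations) and -0.13 at 6 months (n = 46, permutation p = 0.400, adjusted p = 0.815), and rho was 0.13 (permutation p = 0.381, adjusted p = 0.649) and -0.06 (permutation p = 0.698, adjusted p = 0.698). For mir-130a and mir-301a r was 0.06 at 10 months (permutation p = 0.679, adjusted p = 0.815) and -0.02 at 6 months (permutation p = 0.865, adjusted p = 0.865), and rho was 0.11 (permutation p = 0.432, adjusted p = 0.649) and -0.12 (permutation p = 0.420, adjusted p = 0.649). For mir-130b and mir-301a r was -0.17 at 10 months (permutation p = 0.253, adjusted p = 0.815) and 0.09 at 6 months (permutation p = 0.546, adjusted p = 0.815), and rho was -0.09 (permutation p = 0.552, adjusted p = 0.663) and 0.12 (permutation p = 0.415, adjusted p = 0.649).

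Without the 2 libraries farthest from the median of the first-named member, r was 0.13 at 10 months and -0.05 at 6 months for mir-130a and mir-130b. It was 0.09 and -0.21 for mir-130a and mir-301a, and -0.28 and 0.12 for mir-130b and mir-301a. Within single L tags r had no steady sign. For mir-130a and mir-130b it was -0.17 in tag 1 and 0.43 in tag 8 (24 libraries each), and -0.56, -0.15 and -0.07 in tags 2, 3 and 4 (6, 24 and 16 libraries). For mir-130b and mir-301a it was -0.33 and 0.06 in tags 1 and 8, and 0.55, -0.20 and 0.50 in tags 2, 3 and 4. For mir-130a and mir-301a it stayed between -0.11 and 0.16 in the 5 tags. Counting error limits any such value for mir-130b, whose SD after these adjustments was 0.25 on the log2 scale at 10 months and 0.22 at 6 months, against 0.09 and 0.11 for mir-130a and 0.13 and 0.15 for mir-301a.

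**Figure D4:**
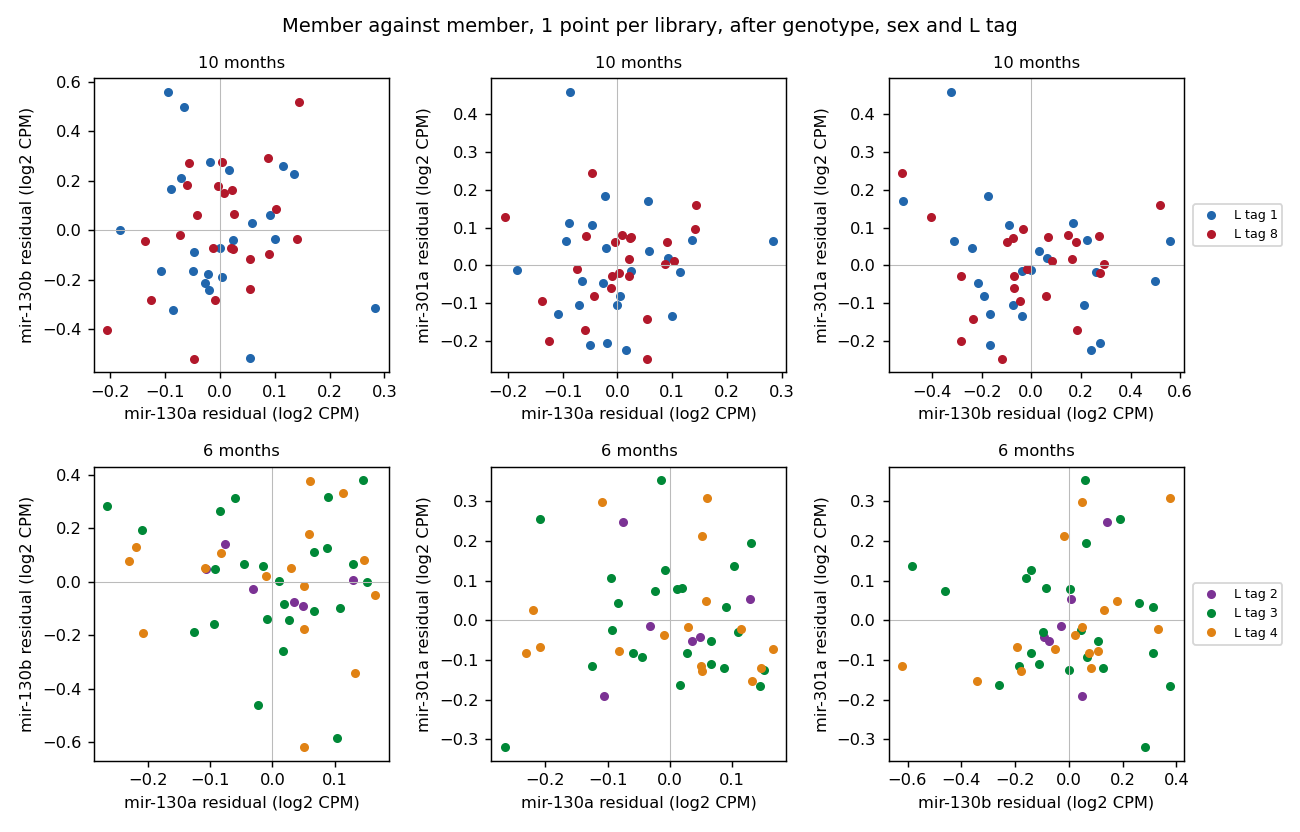
Each member against another across libraries, as log2 CPM left after genotype, sex and L tag (both axes), at 10 months (upper row) and 6 months (lower row); each point is 1 library, coloured by L tag. The clouds show no slope, with r between -0.17 and 0.10.

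Each member was more like some other stem-loop than like the other analysed members. Such a partner was likely in advance, since it has the highest of 433 values. As a description over the same libraries, which have depth and batch in common, the most like mir-301a among 433 other stem-loops was MI0000259, with r of 0.69 at 10 months and 0.84 at 6 months. A further identifier, MI0021961, had the same estimated count as MI0000259 in every library, and counts of both include split reads. The most like mir-130a was MI0005549, with r of 0.53 at 10 months and 0.55 at 6 months, and the most like mir-130b was MI0000170, with r of 0.47 and 0.42, whose counts include split reads. By the mean r of both ages, mir-301a ranked 201 and mir-130b 232 of 433 by likeness to mir-130a, in the middle of the list. These identifiers were not paired with names, so whether any of these partners is a relative with the same seed is not known.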

How the data were processed

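Small RNA of cerebellum was sequenced from single animals as 36-base, strand-specific single-end reads. Per the study's methods, the authors clipped the reads, aligned them to mm10 with STAR and counted with HTSeq, and the submitters' processing notes name CASAVA 1.8.2. The deposited estimated counts per stem-loop were not normalized, and 268 identifiers held values that were not whole, as when reads are divided between stem-loops. The deposited FPKM values are these counts scaled by the authors to library total and stem-loop length.

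After rounding, the quasi-likelihood test of edgeR 4.0.16 (R 4.3.3) with TMM normalization was run over the 434 stem-loops that reached 10 counts in 8 or more libraries at both ages, with Benjamini-Hochberg adjustment at 0.05. Each age was fitted with genotype, sex and L tag, z values of both ages were summed, and log2 fold changes were averaged. Libraries with Z.k under -5, as in the study, were left out. Interactions were fitted over all 94 libraries. Intervals are the estimate ± 1.96 SE. Correlations were tested with 100000 permutations. The code was tested on simulated data.

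The members, lists and rules were chosen with earlier results of these data known. The rule for named identifiers took the 3 members and, for each, the stem-loops most like it, of which only the first is printed. Alternatives were DESeq2 1.42.0, limma 3.58.1 on log2 FPKM (pseudocounts 1 and 0.1), RLE factors, library totals, no low-count filter, no L tag, a replicate block, all 96 libraries, the compared groups alone, WT alone as controls, and each library left out. Lists of relatives, of microRNAs with a similar seed and of cell type markers were written by name and were not analysed here.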

Additional observations from a re-analysis of the deposited data

Results flagged for a closer look

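In 36 groups (3 members, 6 genotype groups, 2 ages), of which chance flags about 1 in 20, a library stood far from the others of its group in 4. For mir-301a at 10 months, WT female replicate 3 of the Q20 line was at 873 CPM, above the next of 597 CPM, and WT male replicate 4 of the Q50 line was at 447 CPM, under the next of 537 CPM. For mir-130a at 6 months, Q140 male replicate 1 was at 706 CPM, above the next of 626 CPM, and Q20 female replicate 3 was at 569 CPM, under the next of 712 CPM. No library of mir-130b stood out in this way.

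The sex difference of mir-301a differed between ages in a test added after the values were seen, by -0.232 on the log2 scale (10 months less 6 months, edgeR adjusted p = 0.0467, between 0.0479 and 0.178 in other settings). It was -0.17 at 10 months and 0.05 at 6 months, with the male mean lower in 6 of 6 and in 3 of 6 genotype groups.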

How the results depend on the processing

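Over 10 to 11 other settings and 94 fits without 1 library, the log2 fold change of mir-130b in Q140 stayed between -0.33 and -0.28 and its slope per 100 CAG between -0.23 and -0.19. No member was called in any setting for Q92, Q50, Q20, age or the differences of the Q140 effect. Values near 0 changed sign in some settings without a call, mostly those of mir-301a.

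Male against female, mir-130a was at 0.0917 and lost its call with no low-count filter, and at 6 months it gained one at 0.132 with DESeq2 and 0.134 with all 96 libraries. The difference of the sex effect of mir-301a between ages lost its call at -0.215 with RLE factors, -0.225 with library totals, -0.235 with no low-count filter, -0.211 with all 96 libraries, -0.198 with no L tag, -0.229 with the replicate block and -0.221 with limma at either pseudocount. Without 1 library it ran from -0.258 to -0.175. The r of mir-130a and mir-301a at 10 months was -0.13 unadjusted and 0.21 on log2(FPKM + 1), and at 6 months it ran from -0.19 to 0.07 without 1 library.

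The replicate block changed no other call of a member, and mir-130b in Q140 was at -0.313 with it. Replicate numbers did not pair libraries, whose deviations from group means had a mean correlation of 0.0286 within a number and -0.00964 between numbers.

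Counts of stem-loops called moved by more than 1.5 times for CAG length (13, against 22 with DESeq2 and 7 with WT alone as controls), Q140 (22, against 33 with DESeq2 and 10 with WT alone), sex (43, against 20 with no low-count filter), Q50 at 10 months (16, against 6 with WT alone, 3 with the compared groups alone and 0 with limma or the replicate block), Q20 against WT littermates (5, against 2 with limma or no L tag) and the difference of the sex effect between ages (8, against 3 with RLE factors, library totals or no L tag and 0 with limma or no low-count filter).

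Depth limits mir-130b most: at 43 counts the counting error of a library is 15.2%.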
